A study of Mus musculus with 88 samples.

Results

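Gene expression in the ventral hippocampus (vHPC) of socially defeated B6 mice that had become susceptible was compared with that of undefeated B6 controls. The comparison used 9 of the 88 libraries of the series, 3 from susceptible and 6 from control mice, each prepared from a single mouse, and covered all 19559 genes with deposited values. All mice were males dissected at 8 weeks of age. The B6 mice were of the strain C57BL/6Crl, and the D2 mice used as a second reference were DBA/2Crl. Susceptible mice had been through chronic social defeat stress (CSDS), in which a mouse meets an aggressive resident every day, and afterward had avoided an unfamiliar mouse in a social avoidance test. Control mice were not defeated. The remaining vHPC libraries came from 8 resilient B6 mice, which were defeated but did not avoid, 6 control D2 mice and 5 susceptible D2 mice. Susceptible is thus a label given after the treatment, from behavior.

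The vHPC is the part of the hippocampus that projects to the prefrontal cortex, the amygdala and the bed nucleus of the stria terminalis (BNST), and it is known for its role in anxiety-related behavior. B6 and D2 are inbred strains, so a sequence difference between them is present in every mouse. The difference in expression of a gene between the strains need not be the same in every tissue. The difference between control D2 and control B6 mice is called the strain axis here, and each change in susceptible mice is described by whether it ran along that axis.

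Values were read counts per library total on the log2 scale (log2 CPM), adjusted by the authors for library preparation and sequencing sets, and a difference of 1 is a 2-fold change. The hippocampal markers were present in both groups. Fibcd1, a marker of CA1 pyramidal neurons, had a mean of 7.166 ± 0.19 (SD, n = 6) log2 CPM in control and 7.36 ± 0.15 (SD, n = 3) in susceptible mice, and Prox1, a marker of granule neurons of the dentate gyrus, had 6.15 ± 0.11 and 6.11 ± 0.17. C1ql2, a secreted protein of granule neurons, was lower in susceptible mice, at 5.54 ± 0.16 against 6.29 ± 0.17. Grik4, a kainate receptor subunit of CA3, was higher, at 6.13 ± 0.13 against 5.85 ± 0.13, but 13 measured markers of CA3 and CA2 had a median difference of -0.24. The choroid plexus, a secretory epithelium in the ventricle beside the hippocampus, contributed RNA unevenly. The mean level of its 15 measured markers ran from 1.141 to 5.48 log2 CPM in control and from 0.27 to 1.42 in susceptible mice. No library preparation set held both a control and a susceptible B6 mouse, so no within-set value could be had. Set and stress can be separated only in a fit that links the sets through mice of the other groups. Sets 6 and 9 held 2 and 3 control B6 mice and no mice of other groups. In such a fit only the 1 control B6 mouse of set 5 is linked to other groups, through 2 susceptible D2 mice. That link reaches the susceptible B6 mice only through the 1 susceptible D2 mouse of set 8. In bulk tissue, fewer cells of a type and less RNA per cell cannot be told apart.

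By limma on all 28 vHPC libraries, 7949 of 19559 genes (40.6%) differed between susceptible and control mice at a Benjamini-Hochberg adjusted p under 0.05. Of these, 4009 were higher (20.5%) and 3940 lower (20.1%) in susceptible mice. Most differences were small. The median size among the called genes was 0.38 on the log2 scale, 66.6% were under 0.5, and 554 genes differed by more than 1, with 199 higher and 355 lower. In 7365 genes (37.7%) the 3 susceptible mice lay beyond all 6 control mice on the same side, and 6625 of those were among the called genes. With the library preparation set as a covariate, 202 genes were called (1.03%), 64 higher and 138 lower. Of these, 201 were called with the same sign without the covariate. The median standard error of the difference was 0.286 with the covariate and 0.0984 without it, and 97.4% of the genes called without it had the same sign with it. The fit with the covariate rests on the 1 linked control B6 mouse of set 5, not on all 6. Of the genes named here 76 were called without the covariate, and 67 of them were not called with it (limma). The 9 that kept the call were Stab2, Myo19, Eno1b, Myoc, Fggy, Pttg1, Nat8f4, Mobp and Mal. Calls of every other named gene, among them Cnp (limma, adjusted p = 0.215 with the covariate), Fosb (0.199), Vamp2 (0.487), Kcng1 (0.272), Per1 (0.598) and Sgk1 (0.343), thus hold only without it.

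The strain axis was anchored in other animals. In the BNST, whose mice gave no vHPC library and whose files hold raw counts, 439 of 17515 genes (2.51%) differed between control D2 and control B6 mice by edgeR at an adjusted p under 0.05, and 107 of them by more than 3 on the log2 scale. Of these 107 genes 88 had vHPC values, 45 higher in D2 and 43 higher in B6 mice in the BNST. In susceptible B6 mice, 85 of the 88 moved toward the D2 level, 76 were called, and in 81 all 3 susceptible mice lay between the 2 control means. The slope of the change on the strain difference was 0.460, where 0 is the control B6 and 1 the control D2 mean. The share of the way had a median of 0.453 and quartiles of 0.382 and 0.482. It ran from -0.991 to 2.65, in 2 genes with vHPC strain differences of only -0.14 and 0.25.

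Each mouse was then placed on the axis by the same 88 genes. The 6 control B6 mice lay between -0.025 and 0.028. The 3 susceptible B6 mice lay at 0.499, 0.443 and 0.437, and the 8 resilient B6 mice between 0.289 and 0.364. Control D2 mice spread from 0.947 to 1.07 and susceptible D2 mice from 1.16 to 1.27. None of the 5 groups overlapped another on this scale, and defeated mice of either strain lay farther toward D2 than the controls of their strain. In the BNST the 5 susceptible B6 mice lay between -0.004 and 0.083 by the 107 genes. In the medial prefrontal cortex (mPFC) the 6 susceptible B6 mice lay between 0.005 and 0.084 by the 88 genes. A shift of the size measured in the vHPC was thus not seen in the counts of the BNST or the adjusted values of the mPFC from mice of the same inbred strain. Within the first sequencing set, which held all 6 control and 2 of the susceptible mice, the slope was 0.463 and 5850 genes (29.9%) were called. The part of the adjustment for library sets in this shift was not tested, as the unadjusted vHPC values were not used here.

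**Figure D1:**
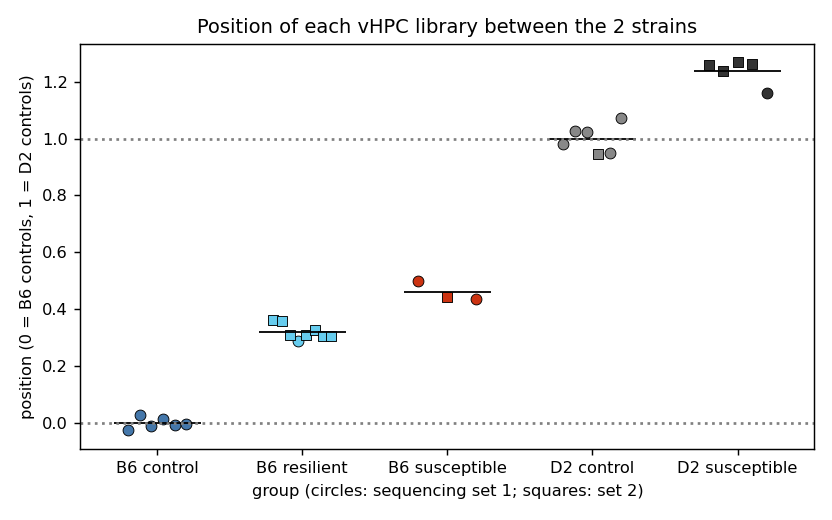
Position of each of the 28 vHPC mice on the strain axis (vertical axis, no unit; 0 is the mean of the control B6 and 1 that of the control D2 mice) by group. Each point is a mouse, and the 3 susceptible B6 mice sit between 0.437 and 0.499, apart from the 6 controls between -0.025 and 0.028.

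Genes that are nearly silent in one strain show the shift most plainly. In 22 genes all 6 control B6 mice were under -1 and all 6 control D2 mice over 1 log2 CPM. The median level of these genes was -4.93 in control B6, -1.40 in susceptible B6 and 1.91 in control D2 mice, and in all 22 the 3 susceptible mice lay above every B6 and below every D2 control. In 66 genes with the reverse pattern the medians were 2.71, -0.18 and -3.25, and all 66 had the 3 susceptible mice between the control groups.

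Stab2, a scavenger receptor of sinusoidal endothelium (chromosome 10, 86841198 to 87008025 in GRCm38), was the gene of highest rank among those that rose along the axis. It is 1 of 8 genes that were named by rank along the axis among those whose susceptible and control mice do not overlap. Stab2 ran from -0.74 to -0.05 log2 CPM in the 6 control mice and was at 3.6, 3.17 and 3.05 in the susceptible mice and from 6.58 to 7.51 in D2 controls. The difference was 3.64 ± 0.23 (SE; limma, adjusted p = 2.69e-11). Across the BNST, Stab2 differed by 5.84 on the log2 scale between the strains and by -0.03 between susceptible and control B6 mice. Myo19, a myosin of mitochondria (chromosome 11, 84880148 to 84911226), ran from 2.52 to 2.92 in control mice and was at 4.10, 4.07 and 4.0 in susceptible mice. Its difference was 1.31 ± 0.09 (SE; limma, adjusted p = 1.12e-10), with D2 controls from 5.17 to 5.49. Cdh24, a cadherin, rose by 1.74, and Eno1b, an enolase gene close in sequence to Eno1 and hence uncertain, rose by 1.5. Control D2 mice were above control B6 mice by 3.33 in Cdh24 and by 3.147 in Eno1b in the vHPC, but in the BNST the strain difference was 0.10 in Cdh24 (edgeR, adjusted p = 0.903) and -0.03 in Eno1b (edgeR, adjusted p = 0.983).

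Myoc, the secreted glycoprotein myocilin (chromosome 1, 162639155 to 162649693), ran from 6.22 to 7.11 log2 CPM in control mice. It was at 3.08, 3.45 and 3.44 in susceptible mice and from -0.23 to 0.17 in D2 controls. Myoc was lower in the susceptible mice (difference -3.33 ± 0.23, SE; limma, adjusted p = 7.16e-11). Fggy, a carbohydrate kinase (chromosome 4, 95557507 to 95926939), ran from 5.97 to 6.42 in control mice and was at 2.53, 3.02 and 3.08 in susceptible mice, a difference of -3.28 ± 0.22 (SE). In the BNST, Fggy differed by -6.05 between the strains and by 0.24 between susceptible and control B6 mice. Pttg1, the separase inhibitor securin, had a difference of -3.10, and Nat8f4, which belongs to a cluster of like acetyltransferase genes that can share reads, one of -2.86. Every one of these 8 genes was near the slope, since the off-axis change was no more than 0.25 of the whole change by the rule that chose them. Stab2 and Fggy were also among the 88 genes that gave the slope, so their large strain differences in the BNST are fixed by that choice.

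Genes were then sorted by both contrasts. The strain and stress contrasts share the 6 control B6 mice, so error in those libraries alone gives a positive slope and agreeing signs, and the following counts are fixed in part by that. Between control D2 and control B6 mice, 11603 genes (59.3%) were called by limma. Among the genes called in susceptible mice, 6947 were called between the strains with the same sign and were not called off the axis, 3474 higher and 3473 lower, which is 87.4% of the 7949. A further 1002, 535 higher and 467 lower, met neither that definition nor the off-axis test. Of 394 genes that differed between the strains in the BNST and were in the vHPC table, 291 (73.9%) were called in susceptible vHPC, 268 of them in the BNST's strain direction.

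**Figure D2:**
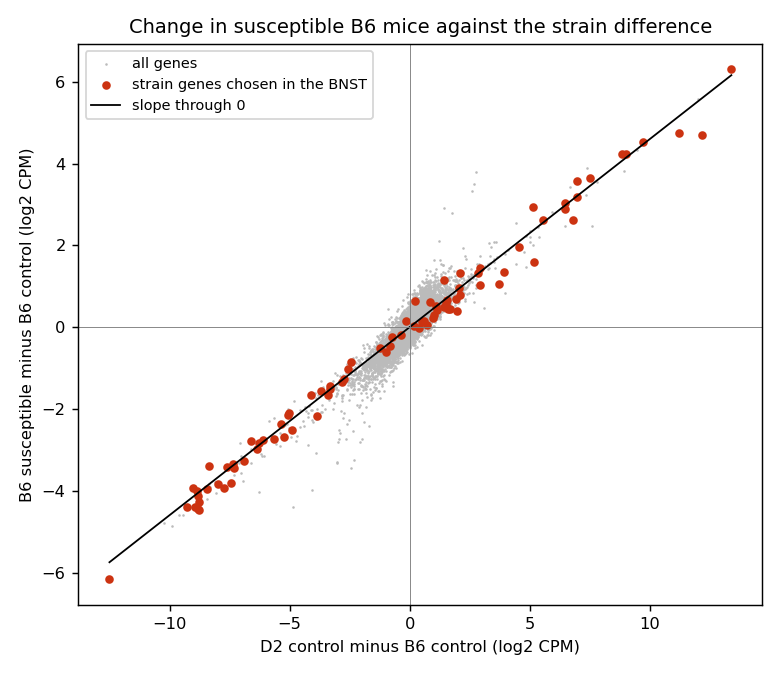
Susceptible minus control B6 difference (vertical axis, log2 CPM) against control D2 minus control B6 difference (horizontal axis, log2 CPM) for vHPC genes. Each point is a gene and the line has the slope of 0.460 fitted through the genes chosen in the BNST, around which the 88 strain genes lie.

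The off-axis change is what is left of a gene's difference after 0.460 times its strain difference is taken away. No gene passed the adjusted threshold in that contrast by limma (0 of 19559, 0%), and the lowest adjusted p was 0.0997. At an unadjusted p under 0.05 there were 4821 genes (24.6%), and 3782 of these were also called in susceptible mice with the same sign, 2109 higher and 1673 lower. At an adjusted p under 0.1 the number was 525. When only the 3 groups of the contrast were fitted, 1929 genes (9.86%) passed at 0.05 and were also called in susceptible mice with the same sign. Of these, 1243 were higher (6.36%) and 686 lower (3.51%). The call in susceptible mice was there taken from a fit of the susceptible and control B6 groups alone. The median residual SD was 0.124 in the fit of 3 groups and 0.141 in the fit of 5 groups, and the residual degrees of freedom were 12 and 23. Whether any gene was called off the axis thus depended on which libraries were fitted, and off-axis changes are given as values. With quantile normalization the number was 1293, and 881 genes were in both of these sets, 45.7% of the 1929 and 68.1% of the 1293. By libraries of the first sequencing set alone it was 277, of which 275 were among the 1929. With the library set covariate it was 0.

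Among the genes that met neither definition, the following were chosen after their values were seen. Kcng1, a modifier subunit of voltage-gated potassium channels, ran from 3.21 to 3.99 in control mice and was at 4.55, 4.91 and 4.69 in susceptible mice. D2 controls ran from 3.85 to 4.7, and resilient B6 mice had a mean of 3.80. Its difference was 1.03 ± 0.23 (SE; limma, adjusted p = 0.0014), of which 0.85 was off the axis (limma, adjusted p = 0.0997). Rab7, a GTPase of late endosomes, ran from 4.37 to 5.17 in control mice and was at 5.68, 5.93 and 5.63 in susceptible mice, a difference of 0.99 with 0.78 off the axis. Pianp, Nova2, a neuronal splicing factor, and Pfdn2, a subunit of the prefoldin chaperone, were higher by 0.92, 0.86 and 0.81, with 0.71, 0.65 and 0.76 off the axis. In the other direction, Igfbp2, a binding protein of insulin-like growth factors, had a difference of -0.86 with -0.64 off the axis. Its control mice ran from 4.69 to 6.33 and its susceptible mice were at 4.47, 4.64 and 4.42. The mean of resilient mice was 5.37, as in controls. Igfbp2 lost its call without the third or the fifth control mouse or any 1 of the susceptible mice (limma, adjusted p from 0.0736 to 0.106), and without the 3 control mice richest in choroid plexus RNA (limma, adjusted p = 0.329). Nova2 and Pfdn2 lost theirs without the second susceptible mouse (limma, adjusted p = 0.0609 and 0.083). Scrn2 had -0.61 with -0.48 off the axis.

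Other genes were taken, again after values were seen, by their rank on -log10(p) times the size of the off-axis change, among genes whose groups did not overlap. They included Lars2, Carmil2, Rtn4rl1 and Lman2l among the higher genes, and Aldh1a1, Id3, Tm4sf1, Gng11, Pdgfd and Col9a3 among the lower ones. Of these lower genes Col9a3, a chain of collagen IX, had the largest off-axis change, -0.97 of a difference of -1.56, and it lost its call without the 3 control mice richest in choroid plexus RNA (limma, adjusted p = 0.0518). Lman2l, a lectin of the early secretory pathway, ran from 4.3 to 4.53 in control mice and was at 5.02, 5.35 and 5.07 in susceptible mice, with a difference of 0.73 ± 0.11 (SE) and 0.50 off the axis. Id3, an inhibitor of helix-loop-helix transcription factors, ran from 5.02 to 5.43 in control mice and was at 4.56, 4.56 and 4.55 in susceptible mice. It differed by -0.67 ± 0.10 (SE) with -0.43 off the axis, and its D2 controls ran from 4.59 to 4.86. Aldh1a1, a retinaldehyde dehydrogenase, ran from 5.38 to 5.7 in control mice and was at 4.59, 4.59 and 4.51 in susceptible mice, and it differed by -0.999 ± 0.11 (SE) with -0.46 off the axis. Tm4sf1, a membrane protein of endothelial cells, was at 3.69, 3.67 and 3.57 in susceptible against 4.49 to 4.87 in control mice.

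Lars2, the leucyl-tRNA synthetase of mitochondria, had the largest off-axis change of those named, 2.27 of a difference of 2.92 ± 0.68 (SE). It ran from 2.56 to 2.94 in control mice and was at 4.65, 7.88 and 4.55 in susceptible mice, so the second mouse stood far above the others. The mitochondrial ribosomal RNA gene mt-Rnr1 ran from 10.27 to 10.698 in control mice and was at 12.04, 13.23 and 12.41 in susceptible mice, with the same mouse highest. Its partner mt-Rnr2 ran from 13.13 to 13.63 and was at 14.33, 14.90 and 14.50. Ribosomal RNA was depleted from these libraries before sequencing, and what remains differs by library. Without that mouse mt-Rnr1 and mt-Rnr2 were no longer called (limma, adjusted p = 0.0711 and 0.113), and mt-Rnr2 was not called without the third either (0.0585) nor without the 3 control mice richest in choroid plexus RNA (0.0567). Quantile normalization left no difference in mt-Rnr2 (limma, adjusted p = 1). The part of the depletion in the Lars2 value was not tested.

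Mature oligodendrocytes wrap axons in myelin, and most of the genes listed for them fell. Of 30 measured members, 22 were lower in susceptible mice and 0 higher, where 20.1% and 20.5% of all genes were, and the median difference was -0.68 against -0.01 over all genes. The mean level of the list ran from 5.73 to 5.99 in control mice and was 5.16, 5.3 and 5.04 in susceptible mice, with no overlap. D2 controls ran from 4.58 to 5.26, and the median off-axis change of the list was -0.22. In the fit of 3 groups 3 members (10%) were called lower off the axis and 0 higher, where 3.51% of all genes were called lower and 6.36% higher. Myelin genes were a subject of the study on these samples, so the count is not independent evidence of a direction. Of 17 markers of oligodendrocyte precursors, 4 were higher and 2 lower, with a median difference of 0.04.

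Mal, a lipid raft protein of compact myelin, ran from 8.08 to 8.26 log2 CPM in control mice and was at 6.88, 6.94 and 6.78 in susceptible mice. The difference was -1.30 ± 0.13 (SE; limma, adjusted p = 3.72e-08), with -0.40 off the axis. Mobp, a structural protein of myelin, ran from 9.29 to 9.54 and was at 8.18, 8.30 and 8.13, a difference of -1.19 ± 0.13 (SE; limma, adjusted p = 2.58e-07), with -0.37 off the axis. Susceptible and control mice did not overlap in either gene. Cnp, a myelin phosphodiesterase, differed by -0.68, Ermn, a cytoskeletal protein of the sheath, by -0.87, and Opalin, a membrane protein of oligodendrocytes, by -0.95, all called by limma. Resilient mice were between the other groups, with a mean of 8.93 for Mobp and 7.64 for Mal. In the mPFC, where 2 control B6 mice also gave a vHPC library, Mobp differed by -0.89 (limma, adjusted p = 0.0269) and Mal by -0.85 in susceptible against control mice. In the BNST the differences were 0.72 and 0.58, and the median of the list was 0.39 there and -0.65 in the mPFC.

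The sequences upstream of these genes are shown because most of the list moved in 1 direction and letters bound by SOX-family factors such as Sox10, the regulator of the oligodendrocyte lineage, are known in myelin promoters. The windows are RefSeq sequences of 300 bases in GRCm38.p6 around the annotated start, 5′ to 3′ on the gene's strand, with each match to ACAAAG or its reverse complement CTTTGT in capitals. The Mobp window (chr9:120149492-120149791, plus strand) held 6 matches and the Cnp window (chr11:100574689-100574988, plus strand) held 1.
Mobp: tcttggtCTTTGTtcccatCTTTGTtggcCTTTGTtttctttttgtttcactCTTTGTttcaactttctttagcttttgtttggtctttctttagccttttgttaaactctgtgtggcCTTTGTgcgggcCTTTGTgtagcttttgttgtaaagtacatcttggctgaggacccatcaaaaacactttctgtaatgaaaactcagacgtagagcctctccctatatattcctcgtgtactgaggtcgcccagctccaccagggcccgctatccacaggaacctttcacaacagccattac
Cnp: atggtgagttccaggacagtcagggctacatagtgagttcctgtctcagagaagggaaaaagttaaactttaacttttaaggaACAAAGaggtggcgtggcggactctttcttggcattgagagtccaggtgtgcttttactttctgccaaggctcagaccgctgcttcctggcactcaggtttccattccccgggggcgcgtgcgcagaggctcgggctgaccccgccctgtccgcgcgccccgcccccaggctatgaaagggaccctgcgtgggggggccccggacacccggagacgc
Of the 22 called members of the list, 17 had a promoter sequence and 7 of these (41.2%) held the letters, against 2034 of 12154 vHPC genes (16.7%). Of all 30 measured members, called or not, 20 had a promoter sequence and 7 of these (35%) held the letters. A match is a description of letters, not a bound site.

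Immediate early genes, which neurons transcribe within minutes of activity, were more often called higher than lower. The tissue was taken days after the last defeat session. Of 24 measured members 13 were higher and 1 lower in susceptible mice, where 20.5% and 20.1% of all genes were, with a median difference of 0.48 and 0.23 off the axis. The mean level of the list ran from 3.62 to 3.99 in control mice and was 4.35, 4.34 and 4.14 in susceptible mice, and in D2 controls it ran from 4.28 to 4.63. Fosb, an AP-1 subunit known to accumulate under repeated stress, ran from 0.11 to 0.75 in control mice and was at 1.58, 1.78 and 1.84 in susceptible mice. Its difference was 1.23 ± 0.16 (SE; limma, adjusted p = 2.44e-06), with 0.43 off the axis and D2 controls from 1.97 to 2.54. Egr2, a zinc finger factor, ran from -0.70 to -0.47 and was at 0.66, 1.08 and 0.83, a difference of 1.44. Nr4a2, an orphan nuclear receptor, was higher by 0.85 with 0.55 off the axis, Nr4a1 by 0.88 with 0.59 off the axis, and Fosl2 by 0.55 with 0.27 off the axis. Fos overlapped between the groups, with control mice from 1.25 to 2.61 and susceptible mice at 3.41, 2.93 and 2.54, and was higher by 0.92. Without the first susceptible mouse Fos lost its call (limma, adjusted p = 0.0688), and Nr4a1 did without the first or the second (limma, adjusted p = 0.0504 and 0.0715). Both also lost their calls in the first sequencing set alone (limma, adjusted p = 0.0824 for Fos and 0.0599 for Nr4a1). There 9 members of the list were higher and 1 lower, where 29.9% of all genes were called in either direction. The member that was lower was Bdnf, the neurotrophin, with control mice from 5.5 to 5.63 and susceptible mice at 5.3, 5.2 and 5.15. It differed by -0.37, of which -0.04 was off the axis.

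Promoters of immediate early genes are known for binding CREB at the letters TGACG, and 2 are shown for that reason, with TGACG or its reverse complement CGTCA in capitals. The Fosb window (chr7:19309996-19310295, minus strand) held 1 match and the Nr4a1 window (chr15:101266596-101266895, plus strand) held 4.
Fosb: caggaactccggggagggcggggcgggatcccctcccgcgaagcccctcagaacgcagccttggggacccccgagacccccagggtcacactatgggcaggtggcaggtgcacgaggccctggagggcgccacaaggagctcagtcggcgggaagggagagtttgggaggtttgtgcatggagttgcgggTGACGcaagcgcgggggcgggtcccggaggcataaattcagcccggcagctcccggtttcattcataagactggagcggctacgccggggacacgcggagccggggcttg
Nr4a1: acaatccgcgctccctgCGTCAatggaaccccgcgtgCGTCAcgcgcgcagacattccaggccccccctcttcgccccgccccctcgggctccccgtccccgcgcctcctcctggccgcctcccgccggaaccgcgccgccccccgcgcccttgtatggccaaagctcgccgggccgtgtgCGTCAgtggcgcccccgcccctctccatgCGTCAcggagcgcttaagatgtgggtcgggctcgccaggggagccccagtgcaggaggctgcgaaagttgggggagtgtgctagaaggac
Of 14 called members of the list, 12 had a promoter sequence and 9 of these (75%) held the letters, against 4048 of 12154 vHPC genes (33.3%). Of all 24 measured members, called or not, 20 had a promoter sequence and 14 of these (70%) held the letters.

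The synaptic vesicle and release list had the highest share of members called off the axis in the fit of 3 groups. Of 23 measured members 17 were higher and 1 lower, where 20.5% and 20.1% of all genes were. The median difference was 0.28, with 0.18 off the axis. In the fit of 3 groups 12 of the 23 (52.2%) were called higher off the axis and 0 lower, against 6.36% of all genes called higher. The mean level of the list ran from 7.74 to 7.87 in control mice and was 8.07, 8.15 and 8.13 in susceptible mice, and D2 controls ran from 7.96 to 8.07. Vamp2, the vesicle SNARE of fast release, ran from 6.35 to 6.79 in control mice and was at 7.191, 7.57 and 7.36 in susceptible mice. It was higher by 0.81 ± 0.20 (SE; limma, adjusted p = 0.0025), with 0.59 off the axis. Bsn, the active zone scaffold bassoon, was higher by 0.86, Cplx2, a complexin, by 0.48, and Syt1, the calcium sensor of release, by 0.45. Snap25, a SNARE of the presynaptic membrane, differed by 0.05 and was not called (limma, adjusted p = 0.394). Synpr, a vesicle protein of mossy fibers, was the lower member, with -0.38. The median of the list was 0.06 in the BNST and 0.04 in the mPFC. Several other lists had calls off the axis in the fit of 3 groups. Among them, 5 of 14 excitatory markers (35.7%) and 5 of 24 immediate early genes (20.8%) were higher and 0 lower. Of 73 cytosolic ribosomal protein genes 12 were lower (16.4%) and 0 higher, and of 80 respiratory genes 14 and 1, against 3.51% of all genes lower.

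Other neuronal lists were read against the same 20.5% of all genes higher and 20.1% lower. Of 36 potassium channel genes 16 were higher and 3 lower, of 24 glutamate receptor subunits 11 and 2, of 14 markers of excitatory neurons 8 and 1, and of 15 markers of cortical and amygdalar neurons 7 and 0. Kcnj10, the potassium channel of astrocytes, had the largest rise among the channels, from 4.71 to 4.97 in control mice to 5.79, 6.29 and 5.8 in susceptible mice, with a difference of 1.1 and 0.25 off the axis. Kcnc1, a channel of fast-spiking neurons, was higher by 0.57 with 0.40 off the axis. Kcna5 was lower, with -0.66 and D2 controls from -0.01 to 0.69. Among the excitatory markers, Camk2a, a kinase of dendritic spines, was higher by 0.45 and Slc17a7, the vesicular glutamate transporter, by 0.22. Both lost their call without the third susceptible mouse (limma, adjusted p = 0.0848 and 0.0718) and without the second (limma, adjusted p = 0.173 and 0.116). Camk2a did so too without the second or the sixth control mouse (limma, adjusted p = 0.0565 and 0.0652), and Slc17a7 without the first (limma, adjusted p = 0.0507). Cux2, Fezf2 and Rspo2, markers of cortical and amygdalar neurons, were higher by 0.81, 0.73 and 0.57. Of 12 genes that mark granule neurons of the dentate gyrus 0 were higher and 5 lower, of 13 that mark CA3 and CA2 3 were higher and 5 lower, and of 11 that mark CA1 2 were higher and 0 lower. Cortical markers thus moved with the synaptic genes while granule markers moved the other way, and the part of dissection in either list was not tested. Grik4, the CA3 gene given above, lost its call without the second susceptible mouse (limma, adjusted p = 0.0649). It did so too in the first sequencing set alone (limma, adjusted p = 0.0854) and without the 3 control mice richest in choroid plexus RNA (0.0939).

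Of 19 circadian clock genes, 9 were higher and 0 lower, with a median of 0.20 and 0.13 off the axis, and 7 (36.8%) were called higher off the axis in the fit of 3 groups, where 20.5% and 6.36% of all genes were higher and higher off the axis. Per1, a light- and hormone-induced repressor of the clock, ran from 5.00 to 5.37 in control mice and was at 5.71, 5.75 and 5.67 in susceptible mice, a difference of 0.51 ± 0.15 (SE; limma, adjusted p = 0.0098). Cry2, another repressor, ran from 5.93 to 6.09 and was at 6.49, 6.55 and 6.46, and Bhlhe41, which represses clock targets, ran from 4.45 to 4.66 and was at 5.16, 5.14 and 5.17. In all 3 the groups did not overlap.

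The stress hormone targets had members called in both directions. Of 19 genes for the glucocorticoid receptor and its targets, 4 were higher and 8 lower, where 20.5% and 20.1% of all genes were, and the median was -0.01 as over all genes. Sgk1, a kinase induced by glucocorticoids, ran from 6.18 to 6.71 in control mice and was at 5.81, 5.93 and 5.72 in susceptible mice, a difference of -0.56 ± 0.10 (SE; limma, adjusted p = 2.13e-04) with -0.34 off the axis. Tsc22d3, which encodes the leucine zipper GILZ, differed by -0.55 and Klf9 by -0.34, both with the D2 control mean below that of the susceptible mice. Ddit4, an inhibitor of mTOR, was higher by 0.73 with 0.61 off the axis, Cdkn1a, a cell cycle inhibitor, by 1.41 with 0.91 off the axis, and Zbtb16 by 0.54, which lost its call without the 3 control mice richest in choroid plexus RNA (limma, adjusted p = 0.0864). Fkbp5, the receptor's cochaperone, ran from 4.23 to 4.64 in control mice and was at 4.39, 4.93 and 4.66 in susceptible mice, and its difference of 0.27 was not called (limma, adjusted p = 0.186). Nr3c2, the mineralocorticoid receptor, had a difference of -0.15, which lost its call without the first or the third susceptible mouse (limma, adjusted p = 0.0698 and 0.179) and without the second or the fourth control mouse (0.0683 and 0.0749). Nr3c1, the glucocorticoid receptor, ran from 7.18 to 7.43 in control mice, was at 7.39, 7.24 and 7.35 in susceptible mice and was not called (limma, adjusted p = 0.924). Ddit4 and Cdkn1a lost their calls without the second susceptible mouse (limma, adjusted p = 0.0688 and 0.0589). Of 18 stress peptides and their receptors 8 were higher and 1 lower. Htr1a, an inhibitory serotonin receptor, was higher by 0.30 with 0.24 off the axis, within a serotonin receptor list of 12 with 3 higher and 3 lower.

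Antigen presentation, vascular and ventricular lists were lower in susceptible mice. Of all genes, 20.1% were called lower and 20.5% higher. Of 16 genes of the major histocompatibility complex (MHC) and antigen presentation, 14 were lower and 0 higher, with a median of -0.75 and -0.31 off the axis. H2-K1, a class I molecule, ran from 4.89 to 5.23 in control mice and was at 3.76, 4.11 and 4.187 in susceptible mice, a difference of -1.04 ± 0.17 (SE; limma, adjusted p = 3.90e-05). Class I genes are alike in sequence and differ between B6 and D2 haplotypes, so reads can be lost or shared there. H2-Eb1, a class II chain, ran from 1.27 to 2.43 and was at -0.79, -0.13 and -0.91, with D2 controls from -3.34 to -1.06. B2m, the light chain that all class I molecules need, ran from 5.34 to 6.05 and was at 4.87, 4.79 and 5.14. Of 19 endothelial and pericyte markers 14 were lower and 0 higher, among them Slco1a4, a transporter of the blood-brain barrier, with -0.60, and Slc2a1, its glucose transporter, with -0.50. Of 17 microglial markers 10 were lower and 0 higher, and of 21 interferon-stimulated genes 10 were lower and 1 higher. Without the first susceptible mouse 6 of the interferon-stimulated genes were lower.

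Choroid plexus and ependymal markers moved with these lists. The shares of all genes with all mice were again 20.1% lower and 20.5% higher. Of 15 choroid plexus markers 9 were lower and 0 higher, with a median of -2.73, and of 9 ependymal markers 8 were lower, among them Foxj1, the regulator of motile cilia, with -0.89. Ttr, the carrier of thyroxine that defines the choroid plexus, ran from 4.21 to 10.88 in control mice and was at 4.73, 5.81 and 3.41 in susceptible mice, so the groups overlapped (limma, adjusted p = 0.0813). Enpp2, which both choroid plexus and oligodendrocytes express, ran from 7.06 to 10.213 and was at 6.77, 7.04 and 6.35. Without the 3 control mice richest in choroid plexus RNA, an alternative chosen after the data were seen, 6304 genes were called (32.2%), 5820 of them also called with all mice and with the same sign, and 15.4% of genes were lower. In that comparison the choroid plexus list had 0 of 15 lower with a median of -0.91, the ependymal list 4 of 9, the MHC list 7 of 16 with a median of -0.68, and the interferon list 5 of 21. The myelin list had 19 of 30 lower with a median of -0.62, the endothelial list 12 of 19, the vesicle list 14 of 23 higher and the immediate early list 14 of 24 higher. B2m, Enpp2 and Foxj1 were then no longer called (limma, adjusted p = 0.0591, 0.328 and 0.0542). Enpp2 also lost its call without the third control mouse (limma, adjusted p = 0.0569), the fifth (0.0589) or any 1 of the susceptible mice. The choroid plexus count also depended on single mice, with 3 lower without the first or the third susceptible mouse, 4 without the second, 4 without the third or the fifth control mouse and 14 without the fourth. The ependymal count was 5 without the first and 4 without the third susceptible mouse.

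Genes of protein synthesis and respiration were mostly not called, and more of the called ones were lower. Of 73 cytosolic ribosomal protein genes 30 were lower and 1 higher, where 20.1% and 20.5% of all genes were, with a median of -0.19 and -0.15 off the axis, and of 80 nuclear subunits of the respiratory chain 30 were lower and 5 higher, with -0.22 and -0.18. The mean level of the respiratory list ran from 5.38 to 5.52 in control mice and was 5.25, 5.24 and 5.31 in susceptible mice. Rps3, a protein of the small subunit, differed by -0.45 and Atp5b, the catalytic subunit of ATP synthase, by -0.22, which lost its call without the first or the second susceptible mouse (limma, adjusted p = 0.0951 and 0.0827). Ribosomal protein genes have many pseudogene copies that can share reads. The count for the respiratory chain fell to 13 lower without the first susceptible mouse, 7 without the second and 14 without the 3 control mice named above. The mitochondrial ribosomal RNAs were higher in the same susceptible mice, as given above for mt-Rnr1, and their part in these lists was not tested.

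**Figure D3:**
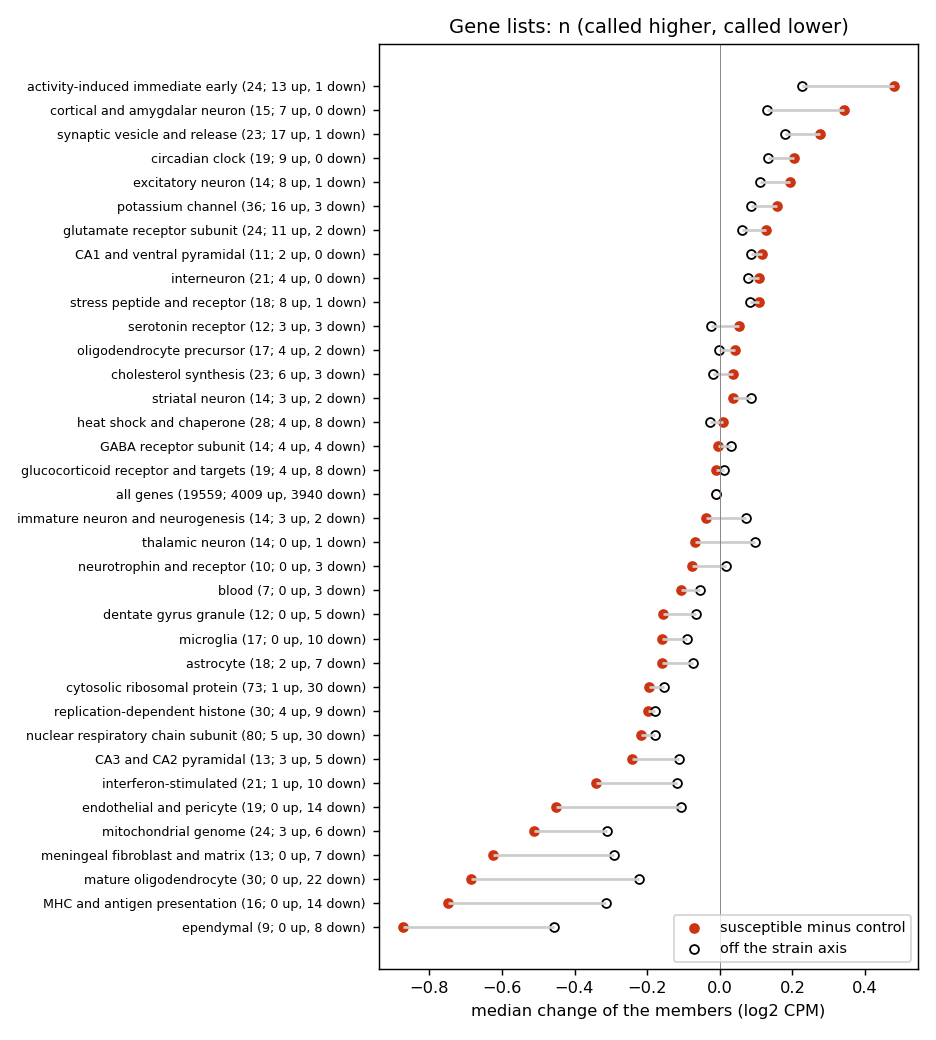
Median log2 difference between susceptible and control B6 mice, in log2 CPM on the horizontal axis, for each gene list, with the whole change and the off-axis change as separate points. The choroid plexus list is left out for its size (-2.73); the mature oligodendrocyte list lies at -0.68 and -0.22 and the synaptic vesicle list at 0.28 and 0.18.

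The remaining lists are given for completeness beside the 20.5% of all genes called higher and the 20.1% called lower, and shares near these are not a result about a list. Of 23 cholesterol genes 6 were higher and 3 lower, with a median of 0.04. Srebf2, their transcriptional regulator, ran from 5.93 to 6.16 in control mice and was at 6.84, 7.11 and 6.80 in susceptible mice, a difference of 0.87 with 0.53 off the axis, and Hmgcs1, an early enzyme of the pathway, was higher by 0.39. Of 18 astrocyte markers 2 were higher and 7 lower. Of 21 interneuron markers 4 were higher and 0 lower, of 14 GABA receptor subunits 4 and 4, and of 10 neurotrophins and receptors 0 and 3. Of 14 genes of immature neurons 3 were higher and 2 lower, of 14 striatal markers 3 and 2, of 14 thalamic markers 0 and 1, of 7 blood genes 0 and 3, of 13 meningeal and matrix genes 0 and 7, of 28 chaperones 4 and 8, of 30 replication-dependent histones 4 and 9, and of 24 genes of the mitochondrial genome 3 and 6. With the library preparation set as a covariate, 2 of the 30 myelin genes, 4 of the 73 ribosomal protein genes and 1 of the 80 respiratory genes were called lower, and 0 genes of the vesicle, immediate early, potassium channel, MHC, endothelial, choroid plexus, ependymal and interferon lists were called. The medians kept their sign, with -0.95 for the myelin, 0.39 for the vesicle, 0.50 for the immediate early and -0.88 for the MHC list.

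**Figure D4:**
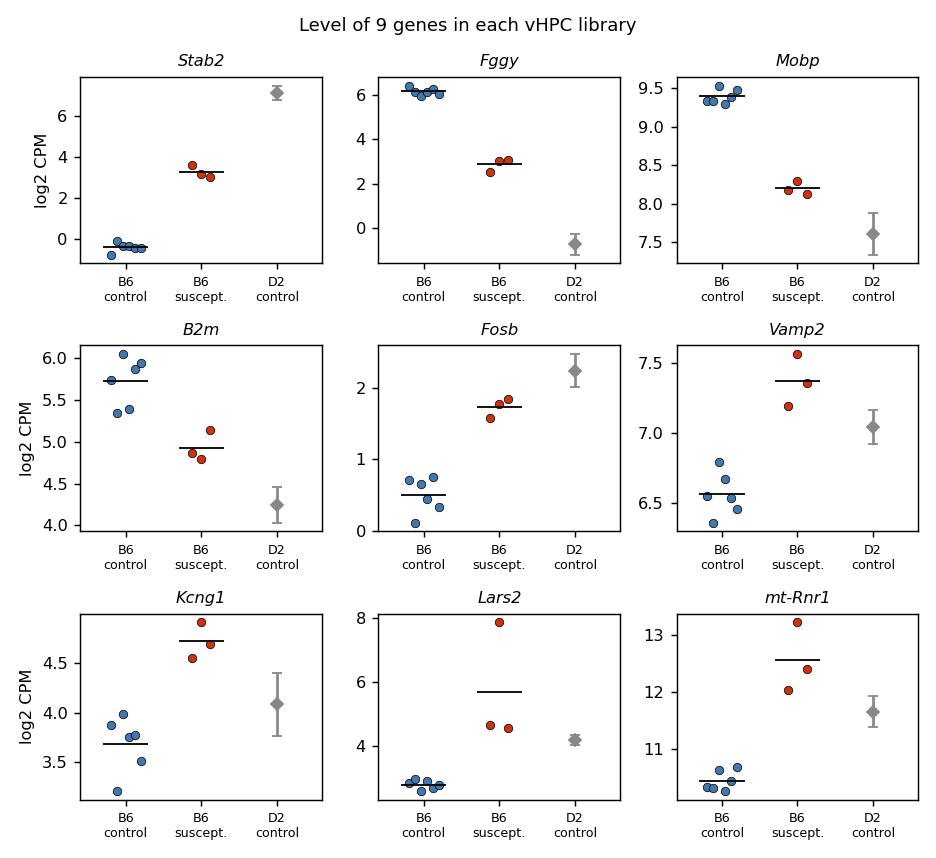
Level of 9 genes (vertical axes, log2 CPM) in each control and susceptible B6 mouse; points are mice, lines are group means, and the diamond is the mean of the 6 control D2 mice with its SD. In Stab2, Fggy, Mobp, B2m and Fosb the susceptible mice sit between the control groups (Mobp at 8.13 to 8.30), while in Vamp2, Kcng1, Lars2 and mt-Rnr1 their mean is above both.

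Susceptible against control B6 mice gave fewer calls in other regions, by tests that were not all alike. The BNST fit used raw counts with no term for library sets, while the mPFC and vHPC values were adjusted for them. The numbers of calls thus differ by method as well as by region. In the BNST, where susceptible and control B6 groups had 5 mice each, 0 of 17515 genes (0%) were called by edgeR, with 1115 at an unadjusted p under 0.05 and 0 called by DESeq2. In the mPFC, where both groups had 6 mice, 420 of 18946 genes (2.22%) were called by limma. The difference between the change in B6 and the change in D2 mice was called by limma for 153 vHPC genes (0.782%). Those regions were prepared with other library kits, and mPFC and vHPC share 2 control B6 mice, so levels are not set side by side across regions.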

How the data were processed

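RNA from the mPFC, vHPC and BNST of single mice was sequenced after ribosomal RNA depletion. Adapters were trimmed, duplicates removed with PRINSEQ, reads aligned with STAR to GRCm38 and counted on exons with HTSeq. For the vHPC and mPFC the authors deposited log2 CPM by voom after a filter on low counts, then applied ComBat to library preparation sets (both regions) and to sequencing sets (vHPC); the groups given to ComBat are not stated in the sources used here. For the BNST the authors deposited raw counts. Read totals of the vHPC cannot be taken from log2 CPM, so no counting interval was computed. Library sets came from the study's sample list.

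Groups came from the strain and phenotype labels, with 1 library a mouse. The vHPC was fitted with limma 3.58.1 (robust empirical Bayes, R 4.3.3) over 28 libraries in 5 groups, with Benjamini-Hochberg adjustment over 19559 genes and a threshold of 0.05. BNST counts of genes that reached 1 CPM in 6 or more libraries were fitted with edgeR 4.0.16 (quasi-likelihood) and, as an alternative, DESeq2 1.42.0. The slope was fitted by least squares through 0 over the 88 strain genes and taken as known in the off-axis contrast, so its own error is not in the p-values. Replicates are separate mice. The scripts were tested on simulated data.

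Genes along the axis were named by rank of -log10(p) times the log2 difference among coding genes with a mean of at least 2 log2 CPM whose groups did not overlap, 4 each way. The rule for off-axis genes gave none. For each list its members of highest level could be named, as well as Ermn, Opalin, Mobp, Fkbp5, Sgk1, Nr3c1 and Nr3c2. Some genes are not reported here. Other genes were chosen after their values were seen, as were the members with large changes in each list. The comparison and the 36 gene lists were chosen with earlier results of these data known.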

Additional observations from a re-analysis of the deposited data

Results flagged for a closer look

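The change in susceptible B6 mice was set against that in susceptible D2 mice, each against the controls of its strain. It differed for 153 of 19559 vHPC genes (0.782%; limma, test of the difference itself, adjusted p under 0.05). Among the 82 genes examined by name it differed for 13. Most of these genes were chosen by the size of their change in B6 mice or after it was seen, so a larger change in B6 than in D2 mice, and with it the count, is in part fixed by the choice. The difference in change, B6 minus D2 on the log2 scale, was -1.65 for Myoc, -1.76 for Fggy, -1.37 for Nat8f4 and -1.67 for Pttg1. It was 0.62 for Myo19, 0.84 for Cdh24, 0.67 for Eno1b and 1.92 for Stab2. In D2 mice Myoc changed by -1.68 and Stab2 by 1.72, in the same direction as in B6 mice and away from the B6 level.

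Among oligodendrocyte genes the difference in change was -0.75 for Mobp and -0.78 for Mal. Mobp changed by -1.19 in B6 and -0.45 in D2 mice, and Mal by -1.30 and -0.52. Among the genes of large off-axis change it was -0.76 for Tm4sf1, -0.52 for Id3 and -0.67 for Aldh1a1. Both strains' changes were measured in values adjusted for library sets, and the part of that adjustment in these differences was not tested.

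On the strain axis 1 of the 5 susceptible D2 mice, at 1.16, stood apart from the other 4 by Dixon's criterion. That mouse was in library set 8 and sequencing set 1. The other 4 were in library sets 4 and 5 and sequencing set 2, and the part of the sets in its position was not tested. This mouse was the only outlier in 86 sets of values tested, where chance gives about 1 in 20.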

How the results depend on the processing

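With the library preparation set as a covariate, 202 genes were called in place of 7949, all 202 along the axis in place of 6947, with a slope of 0.501. That fit links only 1 control B6 mouse to other groups. Quantile normalization gave a slope of 0.396 and all vHPC genes one of 0.535. The number of genes called off the axis was 0, but 1929 when only the groups of the contrast were fitted, 1293 with quantile normalization, 277 in the first sequencing set alone and 525 at an adjusted p under 0.1, a threshold loosened after the data were seen. The causes were not tested. When single control or susceptible mice were left out, 5333 to 7932 genes were called, the slope was 0.440 to 0.471, 5094 to 6874 genes were called along the axis and 0 off it. No called gene named in the text changed direction under the alternatives run. Of those not called, Prox1 (-0.05) turned to 0.012 with the sequencing set as a covariate and lay from -0.14 to 0.0091 without single mice, and Nr3c1 (-0.01) to 0.035 in the first sequencing set alone, 0.22 with the library set covariate, 0.052 without the 3 choroid-rich controls and from -0.042 to 0.035 without single mice. For single genes, 125 of 2046 alternative values lost the call, 67 of them with the library set covariate, and 28 of 341 off-axis values gained one.

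The titles carry a prefix that control and susceptible mice of a strain share, whose meaning the labels do not give and which pairs no single mice. With that prefix as a replicate block, added after the data were seen, 7623 genes were called, 7567 of them also called without it with the same sign, 5957 along the axis and 0 off it, with a slope of 0.460, and of the named genes 1, Igfbp2, lost its call (limma, adjusted p = 0.0534). The 3 susceptible mice, the sets that hold no control beside a susceptible mouse, and the adjustment already in the deposited values limit what these data can separate. The named genes were called in the BNST 0 times by edgeR and by DESeq2.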
